A study of Mus musculus with 6 samples.

Results

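The genes described here are 37 genes of antioxidant defence, glutathione metabolism and the pentose phosphate pathway, taken by symbol from a deposited table of 23194 genes. They comprise 3 genes of the NRF2 system (the factor, its inhibitor and the target Nqo1), 11 glutathione genes, 9 thioredoxin and peroxiredoxin genes, 9 genes that remove superoxide and peroxide, and 5 genes that supply NADPH. All 37 symbols were found, each in 1 row, and all 37 passed the filter on low counts. The libraries were made from left lung tissue of wild-type C57BL/6 mice, all adult. Of these lungs 3 were naive controls. The other 3 are called injured here: their left pulmonary artery had been closed by ligation for 4 h, with the lung warm and in place, and perfusion had then returned for 24 h. No surgery is recorded for the naive animals, so effects of anaesthesia and thoracotomy cannot be told apart from those of ischemia. Each left lung was counted as its own mouse, since an animal has a single one.

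Oxygen returning to ischemic tissue is reduced in part to superoxide. Superoxide dismutases turn superoxide into hydrogen peroxide, and catalase, glutathione peroxidases and peroxiredoxins remove the peroxide. Glutathione reductase and thioredoxin reductase restore the oxidised glutathione and thioredoxin, and both draw their electrons from NADPH. The oxidative steps of the pentose phosphate pathway and malic enzyme make cytosolic NADPH, and phagocytes spend the same NADPH in their oxidative burst. The transcription factor NRF2 is held low by KEAP1, escapes it under oxidative stress, and drives many of these genes through antioxidant response elements in DNA.

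Total counts per library ran from 18913487 to 34986276. The libraries carried lung transcripts, with 10 alveolar type 2 cell markers summing to 35173 to 39091 CPM in naive and 35682 to 39307 CPM in injured lungs. CPM are counts brought to a common library size, with TMM to correct for composition, and FPKM are the authors' values per kilobase of gene length. Log2 fold changes are injured over naive lungs ± SE from edgeR, and a gene was called at an adjusted p under 0.05. Means are given ± SD (n = 3).

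Of the 37 genes, 6 rose in injured lungs and 0 fell. The rises were Gsr, Prdx5, G6pdx, Gpx3, Taldo1 and Pgd, by 1.43-fold for Pgd to 1.83-fold for Gsr. The 6 calls are 16.2% of the genes, where 3.11% of all 15486 genes tested were called in either direction, 2.16% higher and 0.956% lower. The direction of Nqo1, Gsta4, Gstm1, Gstm2, Gsto1, Mgst1, Prdx1, Cat, Gpx7 and Keap1, all uncalled, turned under at least 1 other processing. Limma-voom, which called 2.76% of all genes it tested, also gave 6 higher and 0 lower. DESeq2, which called 6.1% of all genes it tested, gave 10 higher and 1 lower. Another 9 genes had an unadjusted p under 0.05 in edgeR, of which Nfe2l2, Gclc and Sod3 were lower and the other 6 higher. An unadjusted p under 0.05 was found for 16.7% of all genes tested. That share includes called genes, which the 9 leave out. The injured values lay above all naive values for 14 of the 37 genes and below them for 2. Among all genes tested the groups did not overlap for 22.9%, with the injured lungs higher for 12.3% and lower for 10.6%. The median log2 fold change of the 37 genes was 0.17, and that of all genes tested was -0.000960. Together the 37 genes took 0.748% ± 0.0588 of the counts in naive and 0.886% ± 0.0134 in injured lungs.

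**Figure D1:**
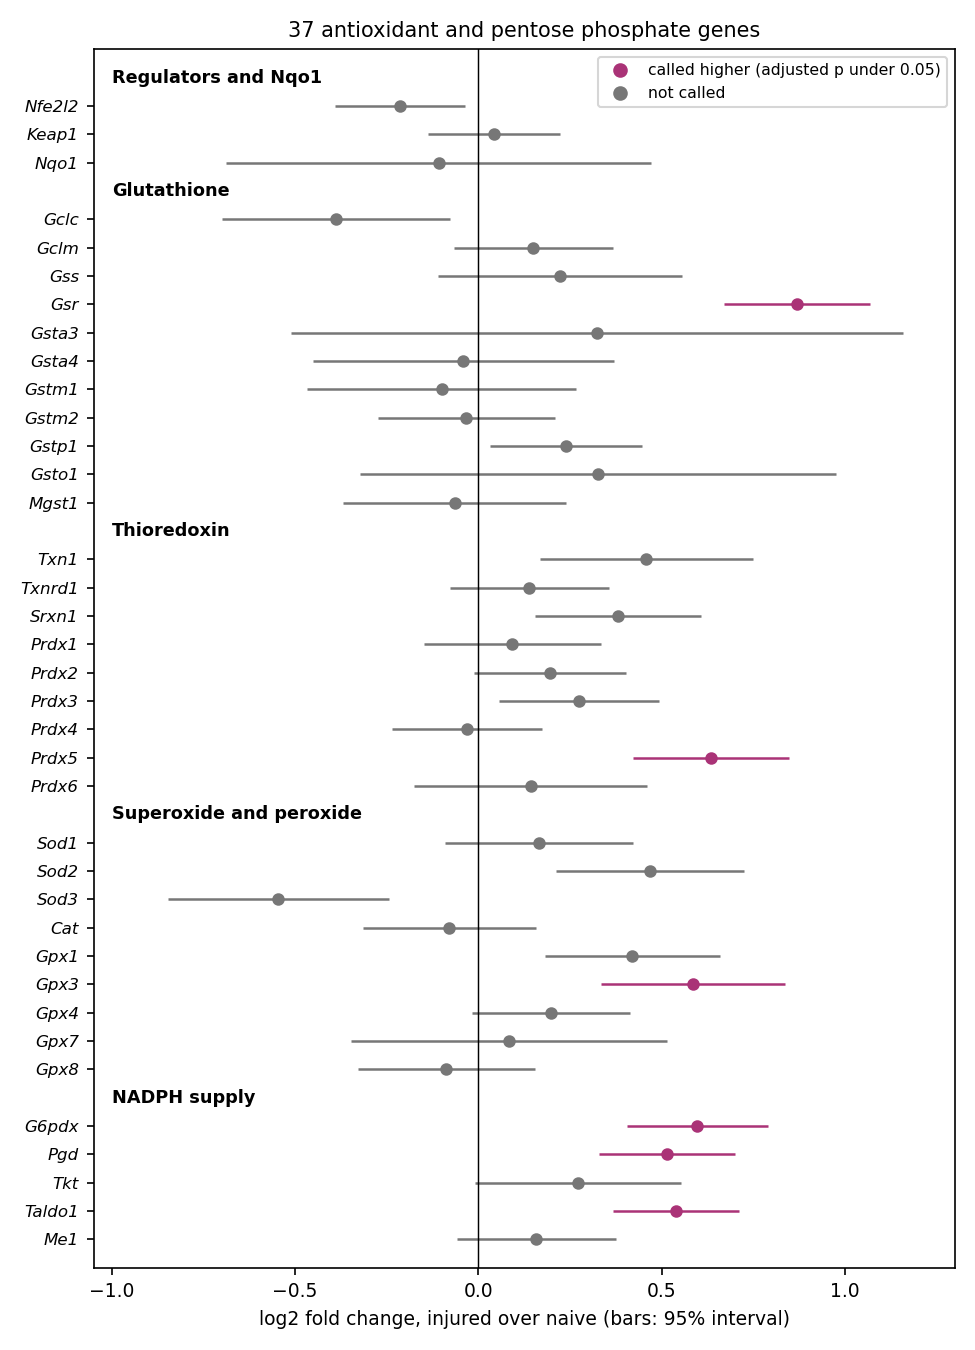
Log2 fold changes of the 37 genes (x axis, injured over naive lungs) with 95% intervals, by group. The 6 called genes (purple) lie between 0.51 and 0.87, and Sod3 has the lowest value at -0.55.

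Markers of neutrophils, monocytes and recruited macrophages also rose in injured lungs, while those of T and B cells did not. Of 12 neutrophil markers 11 rose and 0 fell, and their summed level was 177 to 248 CPM in naive and 1499 to 1988 CPM in injured lungs. Of 12 monocyte and recruited macrophage markers 10 rose and 0 fell, with sums of 968 to 1153 and 1615 to 1893 CPM. No marker of either list was at 0 in all libraries. Of 10 T and B cell markers 3 fell and 0 rose, with sums of 119.8 to 142 and 97.9 to 101 CPM. In whole lung a change in the number of cells of a type and a change in RNA per cell cannot be told apart. The part of these cells in the rises of Gsr, Prdx5, Gpx3 and the pentose phosphate genes was not tested. Endothelial markers had 0 calls among 10, with sums of 5597 to 5919 and 4606 to 5766 CPM. Fibroblast and smooth muscle markers also had 0 calls among 10, with sums of 2595 to 5512 and 3162 to 5385 CPM, and erythroid markers had 0 among 8. Alveolar type 2 cell markers had 0 calls among 10 and heart muscle markers 0 among 8. Single markers were called in the lists of alveolar macrophages (Chil3, higher), club cells (Cldn10, higher), alveolar type 1 cells (Cldn18, lower) and ciliated cells (Tppp3, lower). At an unadjusted p under 0.05 the endothelial, fibroblast and erythroid lists had 1, 3 and 0 markers. The alveolar type 2 and heart muscle lists had 4 and 1, and 16.7% of all genes tested had such a p.

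In the NADPH group 3 of 5 genes rose. G6pdx encodes glucose-6-phosphate dehydrogenase, which commits glucose to the pathway and makes its first NADPH. It had 45.3, 47.9 and 42.4 CPM in naive replicates 1 to 3 and 70.9, 67.7 and 66.6 CPM in injured replicates 1 to 3. Every injured lung was above every naive lung, and the rise was 1.51-fold (log2 fold 0.60 ± 0.09, adjusted p = 0.00690). In the annotation 13.6% of the exon bases of G6pdx are shared with Ikbkg on the opposite strand. The strand setting of the counting is not given, so reads there could come from either gene. Pgd encodes 6-phosphogluconate dehydrogenase, the other NADPH-producing step, and had 122, 119 and 119 CPM in naive replicates 1 to 3 and 183, 162 and 169 CPM in injured replicates 1 to 3. The naive values were close together and the groups did not overlap (log2 fold 0.51 ± 0.08, adjusted p = 0.0111). Without naive replicate 2 or without injured replicate 1 the call of Pgd was lost, with adjusted p = 0.0658 and 0.0570.

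Taldo1 encodes transaldolase of the non-oxidative branch, which returns pentoses to glycolytic sugars. It had 139, 133 and 133 CPM in naive replicates 1 to 3 and 201, 195 and 194 CPM in injured replicates 1 to 3, again with no overlap (log2 fold 0.54 ± 0.08, adjusted p = 0.00673). Tkt, the transketolase that works beside transaldolase, was not called. It had 170.1, 205 and 154 CPM in naive replicates 1 to 3 and 239, 191 and 209 CPM in injured replicates 1 to 3, and the lowest injured value lay below the highest naive value (log2 fold 0.27 ± 0.12, adjusted p = 0.315, 95% interval -0.01 to 0.55). Me1, the cytosolic malic enzyme, had 80.0, 84.7 and 89.4 CPM in naive replicates 1 to 3 and 87.0, 91.4 and 105 CPM in injured replicates 1 to 3 (log2 fold 0.16 ± 0.10, adjusted p = 0.468, 95% interval -0.06 to 0.38). Its values overlapped as well. Per kilobase Taldo1 was the most abundant of the 5, at 109.5 ± 4.05 FPKM in naive and 161 ± 3.22 FPKM in injured lungs, and G6pdx the least, at 17.0 ± 1.24 FPKM in naive and 25.9 ± 0.847 FPKM in injured lungs. Of the group, G6pdx and Taldo1 kept their calls with any 1 library left out.

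Other NADPH supply genes did not pass the test. Of 21 tested genes in that list, 0 rose and 0 fell by edgeR, DESeq2 or limma-voom, and the median log2 fold change was 0.0775. At an unadjusted p under 0.05 there were 6 of 21, against 16.7% of all genes tested. The enzyme between G6pdx and Pgd in the pathway, Pgls, had 35.8, 41.0 and 44.9 CPM in naive replicates 1 to 3 and 55.2, 48.3 and 52.1 CPM in injured replicates 1 to 3 (log2 fold 0.35 ± 0.11, adjusted p = 0.125). Its groups did not overlap. The most abundant genes of the list were H6pd, the glucose-6-phosphate dehydrogenase of the endoplasmic reticulum, at 0.08 ± 0.10, and Nadk, the cytosolic kinase that makes NADP from NAD, at 0.20 ± 0.08 on the log2 scale. Rpia and Rpe, the isomerase and epimerase of the pathway, had log2 fold changes of 0.14 ± 0.11 and 0.07 ± 0.10.

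**Figure D2:**
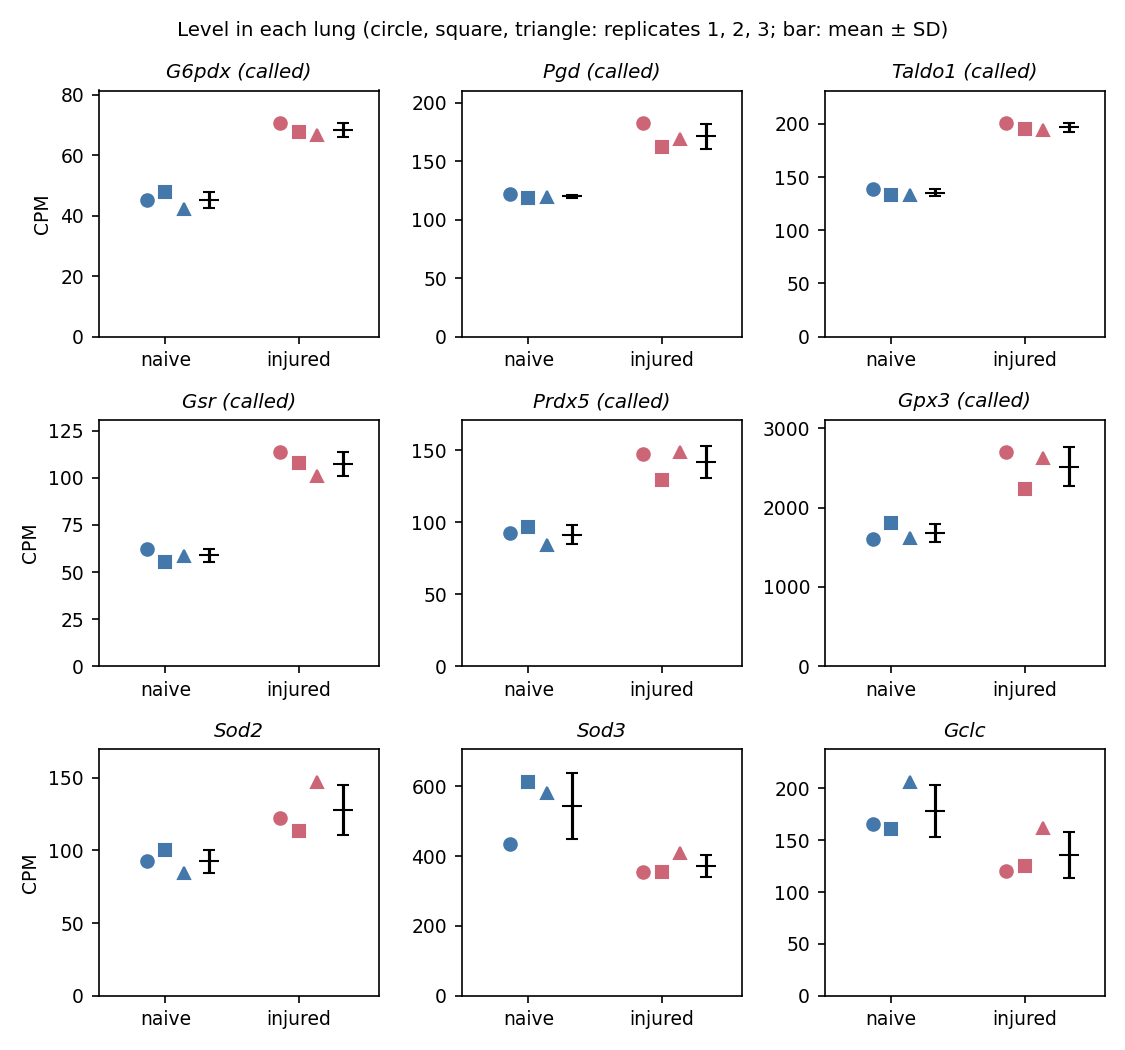
Level of 9 genes in each of the 6 lungs (y axis, CPM, from 0) for naive (blue) and injured (red) lungs, with mean ± SD in black. The injured points of the 6 called genes all lie above the naive points. Those of Sod3 lie below, and those of Gclc overlap at the edge.

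Among the 11 glutathione genes 1 rose. Gsr encodes glutathione reductase, which uses NADPH to return oxidised glutathione to its reduced form. It had 62.4, 55.4 and 58.8 CPM in naive replicates 1 to 3 and 114, 108.1 and 101 CPM in injured replicates 1 to 3. The injured values were 1.83 times the naive values and the lowest injured lung was far above the highest naive lung (log2 fold 0.87 ± 0.09, adjusted p = 0.00116). The call held with any 1 library left out, at adjusted p up to 0.0132.

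The genes of glutathione synthesis did not pass the test. Gclc, the catalytic subunit of glutamate-cysteine ligase, which carries out the rate-limiting step, had 166, 161 and 207 CPM in naive replicates 1 to 3 and 120.2, 125 and 161 CPM in injured replicates 1 to 3. Injured replicates 1 and 2 were below all naive lungs, while injured replicate 3 was level with naive replicate 2 (log2 fold -0.39 ± 0.14, adjusted p = 0.193, 95% interval -0.70 to -0.08). Gclm, the modifier subunit of the same enzyme, had a log2 fold change of 0.15 ± 0.10, and Gss, glutathione synthetase, 0.22 ± 0.15. The ratio of Gclc to Gclm, looked at after these values were seen, was 3.45, 3.59 and 5.11 in naive and 2.58, 2.60 and 3.04 in injured lungs per FPKM. The groups did not overlap, and an exact two-sided permutation test gave p = 0.1, the smallest that 3 against 3 lungs allow.

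None of the 7 glutathione transferases was called, although Gstp1, a cytosolic pi-class enzyme, was higher in all injured lungs. Gstp1 had 83.6, 89.5 and 79.6 CPM in naive replicates 1 to 3 and 100.4, 106.7 and 91.0 CPM in injured replicates 1 to 3 (log2 fold 0.24 ± 0.09, adjusted p = 0.229). Gstp2 is a near-identical copy of Gstp1, so reads could be split between them. The level of Gstp2 was 2.66 ± 0.592 and 2.05 ± 0.0763 CPM. How reads that match both genes were counted is not given in the sources used here, and their part was not tested. Gsto1, the omega-class enzyme, had 107.6, 133 and 91.4 CPM in naive replicates 1 to 3 and 102, 119 and 195 CPM in injured replicates 1 to 3. Injured replicate 3 alone was high (log2 fold 0.33 ± 0.27, adjusted p = 0.625), and without it the log2 fold change was -0.00246. Gsta3, an alpha-class enzyme, had 231, 191 and 95.1 CPM in naive replicates 1 to 3 and 234, 233 and 180.0 CPM in injured replicates 1 to 3. Naive replicate 3 alone was low, and the 95% interval was wide, at -0.51 to 1.16. Gstm1 was the most abundant glutathione gene per kilobase, at 311 ± 54.0 FPKM in naive and 293 ± 55.3 FPKM in injured lungs, and its log2 fold change was -0.10 ± 0.16. The other transferases, Gsta4, Gstm2 and the membrane-bound Mgst1, had log2 fold changes of -0.04 ± 0.18, -0.03 ± 0.11 and -0.06 ± 0.14. Reads of Gstm1 and Gstm2 may be assigned to either, because mu-class genes resemble each other closely.

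Naive lungs differed widely in several of these transferases. The highest naive value was 2.43 times the lowest for Gsta3, 1.66 times for Gsta4 and 1.45 times for Mgst1, where the median over the 37 genes was 1.18. Naive replicate 3 was the lowest naive lung for 21 of the 37 genes, a count that was not made over all genes tested. The summed level of 10 club cell markers was 33932, 29626 and 20727 CPM in naive replicates 1 to 3 and 24236 to 28538 CPM in injured lungs. Their mean log2 CPM, which weights the 10 markers equally, was 8.32, 8.97 and 8.29 in naive replicates 1 to 3, so naive replicate 3 was low in the sum but level with naive replicate 1 in this mean. The part of these cells in the spread was not tested.

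Among the 9 thioredoxin genes 1 rose. Prdx5, a peroxiredoxin of mitochondria, peroxisomes and cytosol, had 92.9, 96.9 and 84.3 CPM in naive replicates 1 to 3 and 148, 129 and 149 CPM in injured replicates 1 to 3. The groups did not overlap and the rise was 1.55-fold (log2 fold 0.64 ± 0.09, adjusted p = 0.00788). In the annotation 19.1% of the exon bases of Prdx5 are shared with Trmt112 on the opposite strand. Whether the counting used strand is not given in the sources used here, so reads there could come from either gene. Txn1, thioredoxin itself, had 136, 112 and 119.8 CPM in naive replicates 1 to 3 and 148, 156 and 201 CPM in injured replicates 1 to 3. All injured values were higher, with injured replicate 3 the highest, but the gene was not called (log2 fold 0.46 ± 0.13, adjusted p = 0.103). Srxn1, sulfiredoxin, which repairs overoxidised peroxiredoxins, had 32.8, 30.1 and 27.1 CPM in naive replicates 1 to 3 and 40.2, 39.0 and 38.0 CPM in injured replicates 1 to 3. Its groups did not overlap either (log2 fold 0.38 ± 0.10, adjusted p = 0.0830). Both genes were called higher by DESeq2, with adjusted p = 0.0309 for Txn1 and 0.0490 for Srxn1.

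The other 6 genes of the group were not called. Txnrd1, the cytosolic thioredoxin reductase, had a log2 fold change of 0.14 ± 0.10. Prdx1 and Prdx2, the main cytosolic peroxiredoxins, had 0.09 ± 0.11 and 0.20 ± 0.09, and Prdx3, which is mitochondrial, had 0.27 ± 0.10. Prdx4 of the endoplasmic reticulum had -0.03 ± 0.09, with a 95% interval of -0.24 to 0.17. Prdx6, which also acts on surfactant phospholipid, was the most abundant peroxiredoxin per kilobase, at 408 ± 75.4 FPKM in naive and 455 ± 54.7 FPKM in injured lungs. Its log2 fold change was 0.14 ± 0.14 (95% interval -0.17 to 0.46).

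In the superoxide and peroxide group 1 of 9 genes rose. Gpx3, the glutathione peroxidase secreted into plasma and extracellular fluid, was the most abundant of all 37 genes per kilobase, at 1046 ± 76.9 FPKM in naive and 1587 ± 156 FPKM in injured lungs. It had 1602, 1808 and 1620.0 CPM in naive replicates 1 to 3 and 2699.9, 2233 and 2622 CPM in injured replicates 1 to 3. Every injured lung was higher (log2 fold 0.59 ± 0.11, adjusted p = 0.0228), but the call depended on the libraries. Adjusted p was 0.0816, 0.0744 and 0.0542 without naive replicates 1, 2 and 3 in turn and 0.10002 without injured replicate 1. Gpx1, the cytosolic and mitochondrial enzyme, had 252, 262 and 210.1 CPM in naive replicates 1 to 3 and 319, 304 and 346 CPM in injured replicates 1 to 3, with no overlap (log2 fold 0.42 ± 0.11, adjusted p = 0.0710). Gpx4, which reduces lipid hydroperoxides in membranes, had 239, 264 and 246 CPM in naive replicates 1 to 3 and 317, 278 and 264 CPM in injured replicates 1 to 3, a log2 fold change of 0.20 ± 0.10. Its lowest injured value lay just above its highest naive value.

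The 3 superoxide dismutases differed in direction, and none was called. Sod2, the manganese enzyme of mitochondria, had 92.6, 100.1 and 84.6 CPM in naive replicates 1 to 3 and 123, 114 and 147 CPM in injured replicates 1 to 3, with every injured lung higher (log2 fold 0.47 ± 0.11, adjusted p = 0.0617). Sod3, the enzyme bound to the extracellular matrix of airways and vessels, had 436, 614 and 582 CPM in naive replicates 1 to 3 and 354, 355 and 409 CPM in injured replicates 1 to 3. Every injured lung was lower, and naive replicate 1 was the lowest naive lung (log2 fold -0.55 ± 0.13, adjusted p = 0.0661). Without naive replicate 1 Sod3 was called lower (log2 fold -0.69, adjusted p = 0.0186). DESeq2 called both Sod2 and Gpx1 higher and Sod3 lower, with adjusted p = 0.0112, 0.0124 and 0.00427. Sod1, the cytosolic copper-zinc enzyme, had a log2 fold change of 0.17 ± 0.11 and catalase, Cat, -0.08 ± 0.11. Gpx7 and Gpx8, which lie in the endoplasmic reticulum, had 0.08 ± 0.19 and -0.09 ± 0.11.

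Levels per kilobase showed which enzyme dominates each family. Sod1 made up 67.9% ± 5.54 in naive and 75.3% ± 2.88 in injured lungs of the summed FPKM of the 3 dismutases. Sod3 made up 27.8% ± 5.49 in naive and 18.7% ± 1.93 in injured lungs, and Sod2 4.38% ± 0.0564 in naive and 6.00% ± 0.955 in injured lungs. For Sod2 and Sod3 the groups did not overlap. Among 6 peroxiredoxins Prdx6 held 59.2% ± 3.91 in naive and 58.0% ± 4.94 in injured lungs, and Prdx5 held 7.30% ± 0.508 in naive and 9.998% ± 1.12 in injured lungs. Among 5 glutathione peroxidases Gpx3 held 66.5% ± 0.652 in naive and 71.0% ± 1.25 in injured lungs, and Gpx4 held 15.9% ± 0.373 in naive and 13.0% ± 1.24 in injured lungs. The summed FPKM of those 5 ran from 1482 to 1700.4 in naive and from 2028 to 2373 in injured lungs. The shares of Sod2, Sod3, Prdx5, Gpx3, Gpx4 and Gpx8 did not overlap between groups. For each of these 6 the exact two-sided permutation test gave p = 0.1, the smallest possible, and 0.233 adjusted over the 14 shares. With 3 against 3 lungs no share could pass the threshold.

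**Figure D3:**
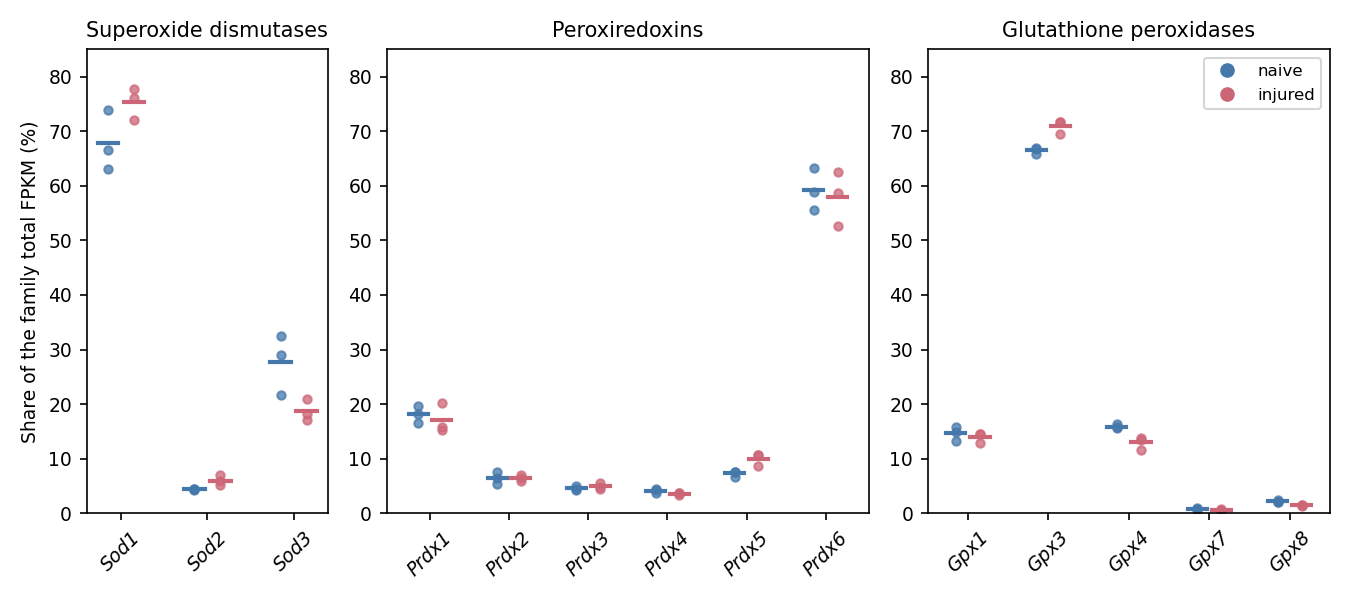
Share of each gene in the summed FPKM of its family (y axis, percent) in each naive (blue) and injured (red) lung, with the group mean as a line. Sod3 lies lower and Prdx5 and Gpx3 higher in injured lungs, with no overlap of the points, and Prdx6 overlaps.

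The regulators did not pass the test. Nfe2l2, which encodes NRF2, had 204, 219 and 219 CPM in naive replicates 1 to 3 and 188, 186 and 180.0 CPM in injured replicates 1 to 3. All injured values were lower, by a small amount (log2 fold -0.21 ± 0.08, adjusted p = 0.209, 95% interval -0.39 to -0.04). Keap1, its inhibitor, had 53.6, 52.6 and 56.6 CPM in naive replicates 1 to 3 and 55.5, 56.4 and 55.9 CPM in injured replicates 1 to 3, so the groups overlapped (log2 fold 0.04 ± 0.08, adjusted p = 0.855, 95% interval -0.14 to 0.22). Nqo1, a quinone reductase and a common readout of NRF2 activity, had 8.37, 9.20 and 4.77 CPM in naive replicates 1 to 3 and 6.85, 8.11 and 5.65 CPM in injured replicates 1 to 3. Its level was low and naive replicate 3 the lowest lung (log2 fold -0.11 ± 0.26, adjusted p = 0.887, 95% interval -0.69 to 0.47). NRF2 is controlled mainly as a protein, which these data do not measure.

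Promoter windows from RefSeq (GRCm38.p6), 250 bases before to 50 after a transcript start, were matched by symbol for 32 of the 37 genes and searched on both strands for TGACNNNGC, the core of the antioxidant response element. The core was present for 11 of 32 genes (34.4%), against 16.9% of the 11190 tested genes with a window and 13.99% of all 27025 genes with one. A gene with several windows counted if any of them held the core. Since NRF2 drives many of the 37 genes, the larger share could follow from the choice of list and is not read as a result. The 11 matches are shown with 10 bases on either side, on the strand where the core reads forward, so that called and uncalled genes can be compared. Capitals mark the core. G6pdx and Pgd were called higher, and the other 9 were not called.
G6pdx: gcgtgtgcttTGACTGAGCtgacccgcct
Pgd: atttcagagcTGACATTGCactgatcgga
Me1: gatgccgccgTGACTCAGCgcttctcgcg
Prdx1: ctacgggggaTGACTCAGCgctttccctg
Srxn1: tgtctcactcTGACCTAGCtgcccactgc
Txnrd1: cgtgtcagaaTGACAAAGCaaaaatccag
Gclm: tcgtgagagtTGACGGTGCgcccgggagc
Gsta3: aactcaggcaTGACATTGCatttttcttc
Mgst1: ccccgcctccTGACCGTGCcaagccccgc
Sod1: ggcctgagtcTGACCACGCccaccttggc
Nfe2l2: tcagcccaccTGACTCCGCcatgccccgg
Me1 and Prdx1 shared 1 core sequence, and Gsta3 and Pgd shared another. The window printed for G6pdx is chrX:74428919-74428947 on the plus strand, and its core lay 57 to 49 bases before the start. The window of Prdx1 is chr4:116685456-116685484 on the minus strand, and its core lay 133 to 125 bases before it. The window of Pgd is chr4:149166061-149166089 on the minus strand, and its core began at base 4 after the start. G6pdx and Pgd both lie on the minus strand. The start used was base 74428880 for G6pdx and base 149166082 for Pgd. Their deposited coordinates end at 74429194 and 149166771, so both of these starts lie inside the gene. The related motif TGANTCA, which the core can overlap, was found for 4 of 32 genes (12.5%), against 6.81% of tested genes. Of the 6 called genes, Taldo1, Gpx3 and Prdx5 had a window without the core, and no window was matched to Gsr. A match describes letters in this window and does not show binding.

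Other genes of the NRF2 network were mostly uncalled. Of 30 tested genes, 1 rose and 1 fell, with a median log2 fold change of 0.0840. Fth1, the ferritin heavy chain that stores iron, had 1731, 1747 and 1614 CPM in naive replicates 1 to 3 and 3015, 2837 and 3279.7 CPM in injured replicates 1 to 3 (log2 fold 0.84 ± 0.10, adjusted p = 0.00344). The groups lay far apart. Bach2, a relative of the NRF2 competitor Bach1 that acts in lymphocytes, had 27.1, 27.8 and 31.4 CPM in naive replicates 1 to 3 and 16.2, 18.9 and 15.8 CPM in injured replicates 1 to 3, lower in every injured lung (log2 fold -0.76 ± 0.12, adjusted p = 0.00843). Hmox1, haem oxygenase, was outside the naming rule and is given because it is a common NRF2 readout. It had 41.9, 45.01 and 43.8 CPM in naive replicates 1 to 3 and 83.8, 82.2 and 263 CPM in injured replicates 1 to 3. All injured values were higher and injured replicate 3 stood far above the other injured lungs, and the gene was not called (log2 fold 1.72 ± 0.55, adjusted p = 0.226). Without injured replicate 3 Hmox1 was called higher (log2 fold 0.93, adjusted p = 0.000861). DESeq2 called 5 genes of this list higher, Fth1, Hmox1, Slc7a11, Ftl1 and Abcc3, and 1 lower. Over all genes it tested, DESeq2 called 6.1%.

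Of 39 other tested glutathione genes 2 rose and 0 fell, with a median log2 fold change of 0.15. Ggt1, the membrane enzyme that splits extracellular glutathione, had 1.58, 1.48 and 1.14 CPM in naive replicates 1 to 3 and 3.97, 5.89 and 3.04 CPM in injured replicates 1 to 3 (log2 fold 1.62 ± 0.31, adjusted p = 0.0228). Glrx, glutaredoxin, which removes glutathione from proteins, had 19.3, 17.6 and 22.5 CPM in naive replicates 1 to 3 and 30.9, 30.0 and 38.6 CPM in injured replicates 1 to 3 (log2 fold 0.74 ± 0.14, adjusted p = 0.0198). Neither gene overlapped between groups, but the calls depended on single libraries. Without naive replicates 1, 2 and 3 and injured replicates 1 and 2 in turn, the adjusted p of Ggt1 was 0.0501, 0.0912, 0.0606, 0.0710 and 0.0758. That of Glrx was 0.0607, 0.0988 and 0.0572 without naive replicates 1 and 2 and injured replicate 1. Of 21 other thioredoxin and repair genes 1 rose and 0 fell, with a median of 0.0661. Msrb1, a selenium-containing methionine sulfoxide reductase, had 51.9, 50.7 and 46.2 CPM in naive replicates 1 to 3 and 93.5, 77.6 and 81.3 CPM in injured replicates 1 to 3 (log2 fold 0.76 ± 0.10, adjusted p = 0.00479). Its call held with any 1 library left out. Glutathione peroxidases 1, 3 and 4 contain selenium too, and of 21 genes of selenoprotein synthesis and transport 1 rose and 0 fell, with a median of 0.0432. Sephs2, which makes the selenium donor, had 24.97, 26.2 and 26.6 CPM in naive replicates 1 to 3 and 37.6, 33.01 and 35.6 CPM in injured replicates 1 to 3 (log2 fold 0.45 ± 0.10, adjusted p = 0.0358). It was not called in any fit that left out 1 library, with adjusted p from 0.0560 to 0.152. At an unadjusted p under 0.05 the uncalled genes numbered 7 in the NRF2, 7 in the glutathione, 3 in the thioredoxin and 1 in the selenoprotein list. Over all genes tested 16.7% had such a p, called genes included, and 3.11% were called.

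**Figure D4:**
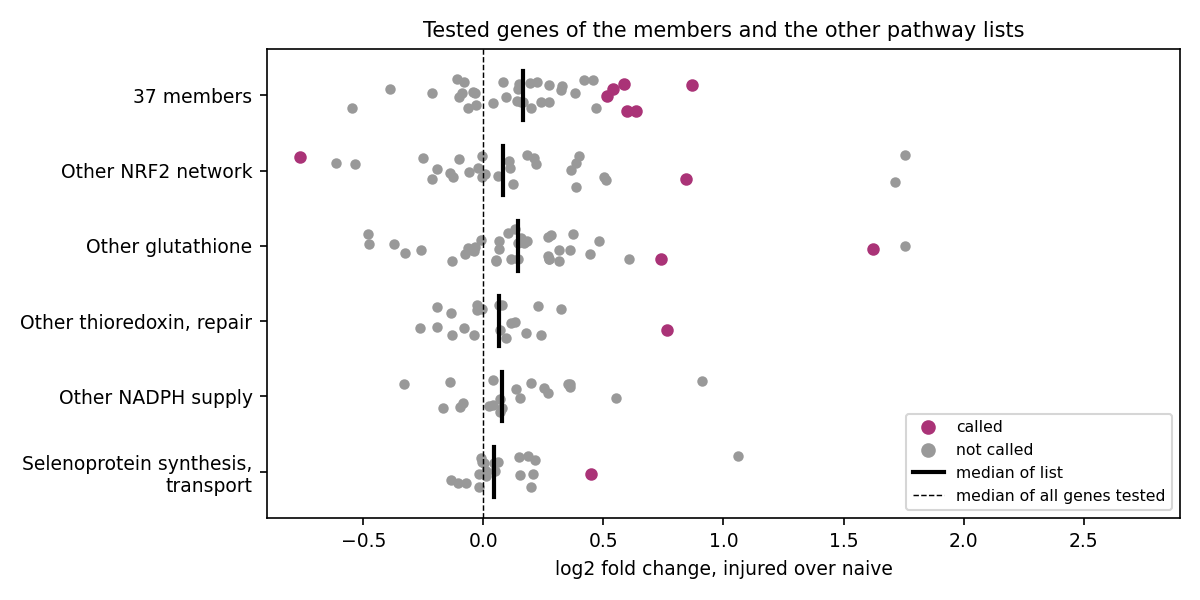
Log2 fold changes (x axis, injured over naive lungs) of the tested genes of each list, 1 point per gene. Called genes are purple, black lines are list medians, from 0.0432 to 0.17, and the dashed line is the median of all genes tested.

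Clock genes differed between lungs as well. Of 16 core clock genes edgeR called 0 in either direction, with a median log2 fold change of -0.57. An unadjusted p under 0.05 was found for 4 of them, against 16.7% of all genes tested. Without naive replicate 3 edgeR called 4 higher and 6 lower, where it called 2.8% of all genes tested. Without injured replicate 2 it called 2 lower, where it called 2.12% of all genes tested. DESeq2 called 4 lower, Cry2, Per2, Nr1d1 and Ciart, where it called 6.1% of all genes tested. With DESeq2's size factors or without a filter edgeR called Cry2 alone lower, and 3.14% of all genes in either fit. A clock score, the mean log2 CPM of 3 activators less that of 8 of their targets, was -3.76, -4.28 and -0.803 in naive and -0.993, -1.57 and -0.753 in injured replicates 1 to 3. Naive replicate 3 lay with the injured lungs. With the score as a covariate G6pdx, Pgd, Taldo1, Gsr and Prdx5 were still called. Gpx3 was not called (log2 fold 0.61, adjusted p = 0.0653), while Gsta3 and Gpx1 were called higher and Gclc lower. Of the genes named from the other lists, Glrx and Sephs2 were not called with the score (log2 fold 0.55 and 0.41, adjusted p = 0.0887 and 0.120). The log2 fold change of Gsta3 was 1.04 in that fit, against 0.32 without the score.

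The authors' deposited table rests on the same 6 libraries, so it is not a separate check. It gave the same direction for all 37 genes. At an adjusted p under 0.05 it listed 10 of them as higher and 1 as lower, where it lists 6.15% of 15721 genes with an adjusted p. The authors' deposited table added Txn1, Srxn1, Sod2 and Gpx1 as higher and Sod3 as lower to the 6 genes called here. In that deposited table Gsr had a log2 fold change of 0.82 and Sod3 one of -0.50. G6pdx shares 13.6% of its exon bases with Ikbkg on the opposite strand in the annotation. In the mm10 coordinates of the table the called genes are Gsr (ENSMUSG00000031584, chromosome 8, 33652523 to 33698163), Prdx5 (ENSMUSG00000024953, chromosome 19, 6906697 to 6910106), G6pdx (ENSMUSG00000031400, chromosome X, 74409483 to 74429194), Gpx3 (ENSMUSG00000018339, chromosome 11, 54902453 to 54910377), Taldo1 (ENSMUSG00000025503, chromosome 7, 141392199 to 141402968) and Pgd (ENSMUSG00000028961, chromosome 4, 149149991 to 149166771).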

How the data were processed

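RNA was sequenced from 3 naive and 3 injured left lungs, and the members and lists were chosen with earlier results of these data known. How the authors went from reads to counts is known only by name: mm10, STAR, STAR-Fusion, HTSeq, edgeR and DESeq2 appear in the submitters' processing notes with no version or role. Whether the count step used strand, and on which gene annotation, is not given in the sources used here. The table the authors deposited holds raw counts per gene, counts divided by 1 size factor per library (a normalized signal), and FPKM, per the file headers. The deposited FPKM follow from the counts, GeneLength and column totals within a relative tolerance of 1e-06. The log2 fold changes, p-values and adjusted p-values of the authors' comparison are used as deposited.

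Genes were filtered with filterByExpr, leaving 15486 of 23194, scaled by TMM and tested with the robust quasi-likelihood test of edgeR 4.0.16 (R 4.3.3) on group alone, with Benjamini-Hochberg adjustment over all genes tested and a threshold of 0.05. Fold changes carry their SE and a 95% interval from the same fit. Totals of 18913487 to 34986276 counts bear on the precision, as does the spread between lungs. Shares within families used FPKM and an exact permutation test. Alternatives were other scalings and filters, DESeq2 1.42.0, limma-voom (limma 3.58.1), a replicate block, a clock score as covariate, and leaving out each library. Per-library values are given for called genes and for the 2 uncalled genes of each group with the largest absolute log2 fold change. In other lists up to 3 called genes at 1 CPM or more are named, or the 2 most abundant where none was called. Values of Gpx1, Gpx4, Gstp1, Gstp2, Gsta3, Keap1, Pgls, Rpia, Rpe, Hmox1 and the Gclc to Gclm ratio fall outside that rule and were added with their values known. Counts were simulated for 15486 genes, 200 of them changed. After the filter edgeR and limma-voom tested 15348 of these, and DESeq2 was given all 15486. At a log2 change of 1 edgeR recovered 75 of 100, and 96 of 100 at 2. Of its 196 calls 25 were false (12.8%), against 47 of 225 with DESeq2 (20.9%) and 17 of 188 with limma-voom (9.04%). Each of these shares exceeds the threshold of 0.05 set for the adjusted p. No change smaller than 1 was simulated. The called genes of the 37 lay between 0.51 and 0.87, so these recovery rates do not cover them. Exon overlaps came from GENCODE and promoter windows from RefSeq (GRCm38.p6).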

Additional observations from a re-analysis of the deposited data

How the results depend on the processing

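Gsr, Prdx5, G6pdx and Taldo1 were called higher in all 15 alternatives. The number of the 37 genes called was 6 higher and 0 lower with DESeq2's size factors in edgeR, with library size alone, with a filter of 1 CPM in 3 libraries, with limma-voom, and without the 20 most abundant and the haemoglobin genes. Those fits called 2.76% to 3.33% of all genes they tested. DESeq2 called 10 higher and 1 lower (6.1% of all genes tested), and edgeR without a filter 9 higher and 1 lower (3.14%). With the clock score 7 were called higher and 1 lower, where 3.19% of all genes were called. Leaving out 1 library gave 4 to 6 higher and 0 to 1 lower, where 1.24% to 2.95% of all genes were called. Over all genes, 482 calls of 15486 tested became 976 of 15990 with DESeq2 and 729 of 23194 without a filter. With 1 library left out there were 195 to 463 calls, with 15707 to 15788 genes tested. In the latter fits fewer samples entered.

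The replicate numbers share no stated litter or day, and lungs of the same number deviated together with correlations of 0.095, -0.084 and 0.181, so the numbers were not taken to pair lungs. With a replicate block 6 genes were called higher and 2 lower (Gclc, adjusted p = 0.0489, and Sod3, adjusted p = 0.0424). Over all genes 621 of 15486 were called (4.01%). The block also ended the call of Sephs2 (adjusted p = 0.0537) and called 4 core clock genes lower. Not every lung correlated best with its own number.

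Of 555 values of single genes 513 kept their direction and side of the threshold, 15 became called, 7 lost the call and 20 changed sign. Signs changed only for 10 genes that were not called. With the clock score the log2 fold changes were -0.0055 for Keap1, 0.46 for Nqo1, 0.37 for Gsta4, 0.18 for Gstm1, 0.22 for Mgst1, 0.068 for Cat and -0.10 for Gpx7. With limma-voom that of Gsta4 was 0.00078. With 1 library left out they ran from -0.36 to 0.063 for Nqo1, -0.24 to 0.090 for Gsta4, -0.23 to 0.040 for Gstm1, -0.10 to 0.060 for Gstm2, -0.0025 to 0.51 for Gsto1, -0.21 to 0.046 for Mgst1, -0.027 to 0.16 for Prdx1 and -0.10 to 0.21 for Gpx7. The cause was not tested. Counting error is largest for the genes of lowest level, among those named Nqo1, Ggt1 and Gstp2, all under 10 CPM in every lung, but it was not separated from the spread between lungs.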
